A study of Mus musculus with 8 samples.

Results

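The insulin-like growth factor (IGF) receptors, adaptors and binding proteins were examined as a set of 10 genes taken by name from the table of all genes. They are the receptor genes Igf1r and Insr, the adaptor genes Irs1 and Irs2, and the binding protein genes Igfbp2, Igfbp3, Igfbp4, Igfbp5, Igfbp6 and Igfbp7. All 10 were found among the 20254 genes of the table, and all 10 passed the filter on low values, as did 15381 genes in all. RNA sequencing of polyadenylated RNA was done on nephron progenitor cells, the cells of the cap mesenchyme that form the nephron, from mouse kidneys at embryonic day 17.5. Mutant cells carried the genotype labelled VHLNP-/- (4 libraries, Mutant 1 to 4), and control cells the genotype labelled VHLNP+/- (4 libraries, Control 1 to 4). Both groups were of the strain labelled Six2EGFPcre, a transgene in which the progenitor gene Six2 drives a fusion of green fluorescent protein and Cre recombinase, and both were sorted by green fluorescence. The controls therefore also carried the Cre transgene and are labelled heterozygous, not wild type. The labels do not say whether a library came from 1 embryo or from pooled embryos, so p-values measure the spread between these libraries, which may be partly technical.

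IGF1 and IGF2 are secreted ligands that activate the IGF1 receptor, a tyrosine kinase, and the related insulin receptor. The activated receptors phosphorylate insulin receptor substrate proteins, which recruit the PI3-kinase and AKT pathway. The binding proteins hold IGFs outside the cell and set how much ligand reaches the receptors, and the receptor encoded by Igf2r clears IGF2. IGF2 is a major growth factor of the fetus, and the kidney mesenchyme expresses it. Vhl encodes the part of a ubiquitin ligase that recognises the hypoxia-inducible factors (HIF) for degradation, and the study asks how its loss in nephron progenitors bears on their metabolism and differentiation.

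Reads assigned to genes numbered 37252683 to 46515762 per library. Vhl was at 320.2, 285, 331 and 336 normalised reads (reads divided by the library's size factor) in Mutant 1 to 4, against 1134, 1379, 1208 and 1180 in Control 1 to 4, a fall of 1.94 on the log2 scale. The 10 listed markers of nephron progenitors were detected in every library and summed to between 103319 and 111667 normalised reads in mutants and between 105575 and 115340 in controls. Listed markers of stroma (11 of 12 in the table), endothelium (12 of 12), ureteric bud (10 of 10) and leukocytes (10 of 10) were also detected in every library. Mutant 2 and Control 3 stood apart, with the lowest sums of their groups for 5 of the 8 marker lists, and Xist, the transcript of the inactive X chromosome, was at 51.9 normalised reads in Mutant 2 and 8.84 in Control 2 but at 60017 or more in the other libraries. Rn45s, a ribosomal RNA precursor, was at 239318 normalised reads in Mutant 2, 252136 in Control 3 and 322590 in Mutant 1. It was at 135741 to 161316 in the other libraries. In these sorted bulk cells, fewer cells of a type and less RNA per cell cannot be told apart.

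Of the 10 genes, Igf1r and Igfbp2 rose in mutants, Igfbp4 fell, and 7 did not pass the test (limma on log2 of normalised reads + 1, Benjamini-Hochberg adjusted p under 0.05). Across all 15381 genes tested, 8.43% were called, 5.4% higher and 3.03% lower in mutants. The same 3 genes were those whose mutant and control libraries did not overlap, which was true of 15.3% of all genes (8.54% higher and 6.72% lower in mutants). The median log2 fold change of the 10 genes was 0.04, beside -0.01 for all genes tested. The authors' deposited table called 4 of the 10, the same 3 and Igfbp5, beside 12.5% of all genes with an adjusted p there.

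**Figure D1:**
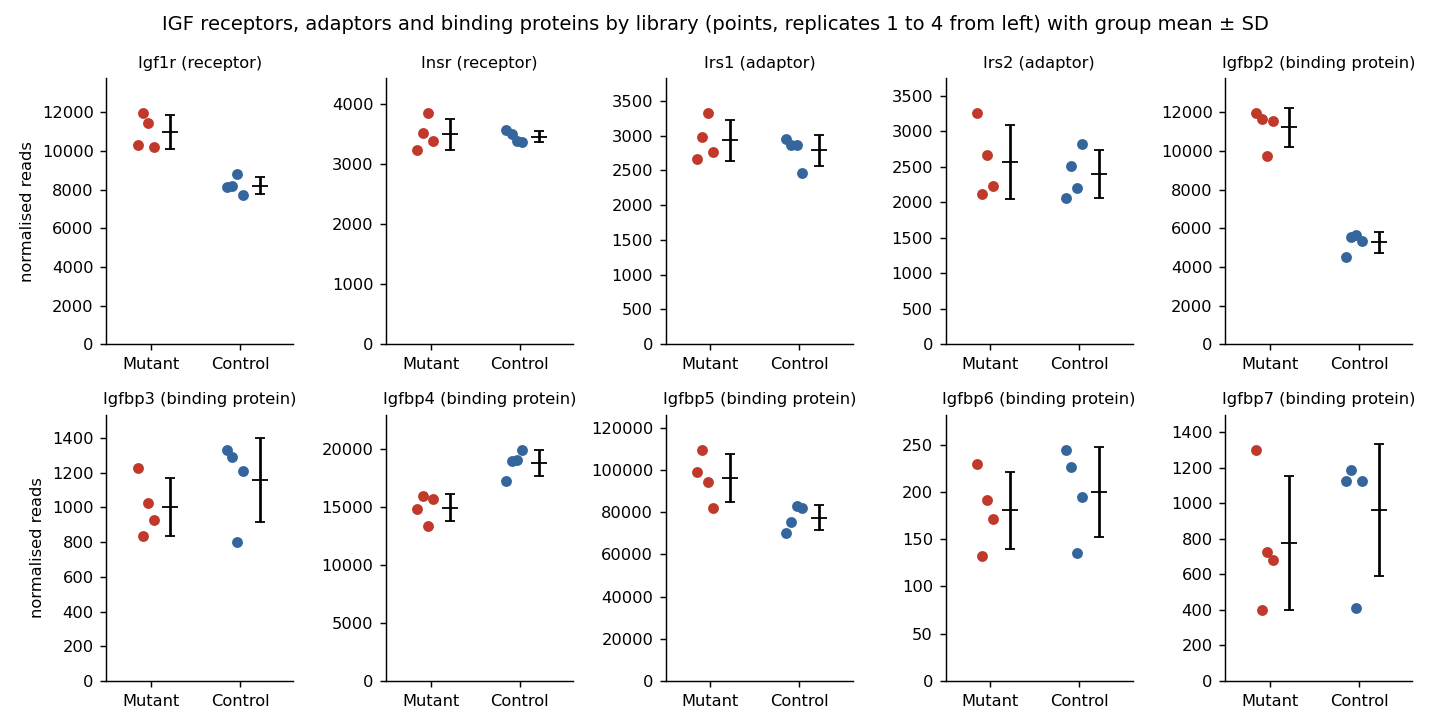
Normalised reads of each of the 10 genes (vertical axes, from 0) in the 4 Mutant and 4 Control libraries (points, replicates 1 to 4 from left), with the group mean and SD beside them. The groups are separate for Igf1r, Igfbp2 and Igfbp4 and overlap for the others.

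**Figure D2:**
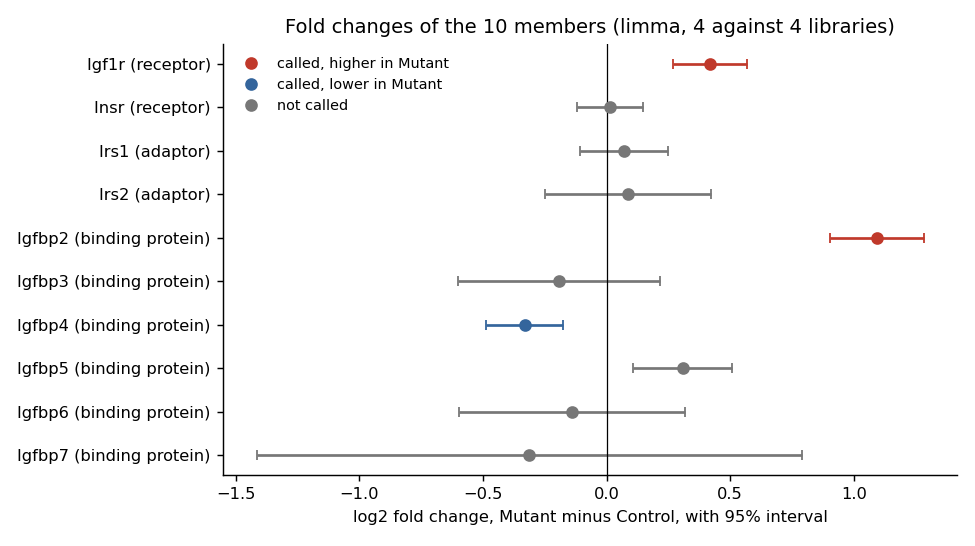
Log2 fold change, Mutant minus Control, of the 10 genes in limma (points) with 95% intervals (bars). Igfbp2 lies highest at 1.09, the interval of Igfbp7 is the widest, and the interval of Igfbp5 excludes 0 although its adjusted p did not pass.

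The sequences just upstream of the starts of the 3 changed genes and of both adaptor genes, neither of which passed the test, are shown because they differ in whether they hold the core letters that HIF recognises. RefSeq windows (GRCm38.p6) were found for 9 of the 10 genes, and the 250 bases before the start were searched for ACGTG and GCGTG on both strands, overlapping matches counted separately. At least 1 match was present in 6 of these 9 genes. Counted by window, it was present in 6 of their 10 windows and in 38.6% of all 32851 windows of that length. Capitals mark the matches, and each window reads from 5′ to 3′ on the gene's strand.
Igf1r, chr7:67952007-67952256, plus strand: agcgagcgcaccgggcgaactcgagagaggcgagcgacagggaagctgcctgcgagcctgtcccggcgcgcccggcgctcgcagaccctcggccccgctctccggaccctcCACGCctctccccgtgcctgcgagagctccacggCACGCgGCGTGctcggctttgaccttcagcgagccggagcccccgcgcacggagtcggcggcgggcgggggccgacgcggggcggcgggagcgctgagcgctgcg
Igfbp2, chr1:72824230-72824479, plus strand: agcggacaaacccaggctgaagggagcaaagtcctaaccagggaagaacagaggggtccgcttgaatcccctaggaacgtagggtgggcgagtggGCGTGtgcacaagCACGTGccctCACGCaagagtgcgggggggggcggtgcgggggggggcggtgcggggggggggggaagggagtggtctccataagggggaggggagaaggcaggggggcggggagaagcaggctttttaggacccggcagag
Irs1, chr1:82291440-82291689, minus strand: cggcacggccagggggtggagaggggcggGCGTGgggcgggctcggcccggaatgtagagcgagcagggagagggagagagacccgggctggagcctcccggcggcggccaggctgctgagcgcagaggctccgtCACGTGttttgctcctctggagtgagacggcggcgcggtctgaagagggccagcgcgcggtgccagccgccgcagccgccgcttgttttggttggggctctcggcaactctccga
Irs2, chr8:11008930-11009179, minus strand: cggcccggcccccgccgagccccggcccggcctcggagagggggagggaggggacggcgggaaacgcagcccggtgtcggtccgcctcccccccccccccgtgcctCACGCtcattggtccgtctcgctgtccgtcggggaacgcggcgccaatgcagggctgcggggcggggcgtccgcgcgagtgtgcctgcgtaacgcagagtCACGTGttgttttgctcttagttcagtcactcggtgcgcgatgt
Igfbp4, chr11:99040994-99041243, plus strand: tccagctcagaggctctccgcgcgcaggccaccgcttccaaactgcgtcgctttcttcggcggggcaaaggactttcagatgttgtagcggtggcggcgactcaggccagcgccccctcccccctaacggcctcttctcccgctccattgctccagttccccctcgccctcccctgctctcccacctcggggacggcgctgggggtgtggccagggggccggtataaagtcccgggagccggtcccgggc
Igfbp2 held 4 matches before the start site shown here and none before its other annotated start site. Igf1r, Irs1 and Irs2 held 3 matches each, and 6.58% of all windows held 3 or more. The palindrome CACGTG, in which ACGTG is read on both strands, was held by 6.02% of all windows. It began at base -142 of Igfbp2, -115 of Irs1 and -44 of Irs2, counted back from each start. Each palindrome is 1 stretch of letters that gave 2 of the matches counted for its gene. Whether HIF or another factor binds it was not tested. Igfbp4, Igfbp5 and Igfbp6 held no match in this window. In these windows, both genes that rose held matches and the gene that fell held none. Of the 6 uncalled genes with a window, 4 (Irs1, Irs2, Igfbp3 and Igfbp7) held a match and 2 did not. A match describes the letters of the window and is not a measured binding site. The windows end at RefSeq starts, which can differ from the gene positions given below. For Igf1r the RefSeq start was 67952257, while its gene position begins at 67952827. For Irs2, on the minus strand, the RefSeq start was 11008929, while its gene position ends at 11008458. Windows just before those gene positions were not searched.

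Among the receptors, Igf1r rose and Insr did not pass the test. Igf1r (ENSMUSG00000005533, mm10 chromosome 7, 67952827 to 68233668) encodes the receptor that carries most IGF signalling. It was at 10321, 11965, 11462 and 10192 normalised reads in Mutant 1 to 4, against 8143, 8186, 8811 and 7709 in Control 1 to 4. Every mutant library lay above every control library. The means were 10985 ± 867 in mutants and 8212 ± 454 in controls (SD, n = 4 each), a 1.34-fold rise with a 95% interval of 1.21 to 1.48 (log2 fold change 0.42, SE 0.07, limma adjusted p = 0.00272). A two-sided exact permutation test gave p = 0.0286, the smallest that 4 against 4 libraries allow. The adjusted p was 0.00955 with Mutant 2 and Control 3 left out and 0.0296 with Mutant 2 and Control 2 left out.

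Insr (ENSMUSG00000005534, chromosome 8, 3122061 to 3279617) encodes the insulin receptor, which also pairs with the IGF1 receptor in hybrid receptors. It was at 3234, 3509.8, 3842 and 3373 normalised reads in Mutant 1 to 4, against 3566.5, 3495, 3379 and 3368 in Control 1 to 4. The groups overlapped throughout. The log2 fold change was 0.01 with a 95% interval of -0.12 to 0.15 (adjusted p = 0.931), so a change as large as that of Igf1r lay outside the interval. The ratio of Igf1r to Insr, both per kb of exon, was 2.61, 2.79, 2.44 and 2.47 in Mutant 1 to 4, against 1.87, 1.92, 2.13 and 1.87 in Control 1 to 4. The log2 ratio of the normalised reads was 0.40 higher in mutants, with no overlap between the groups (two-sided exact permutation p = 0.0286, and 0.0286 adjusted over the 3 ratios compared). Igf1r alone already separated the groups, so this p-value is not separate support. All 3 ratios gave the same p-value, so the adjustment could not change it.

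Both adaptor genes were detected in every library and neither passed the test. Irs1 (ENSMUSG00000055980, chromosome 1, 82233101 to 82291416), the substrate that links both receptors to PI3-kinase, was at 2663.5, 2986, 3323 and 2758 normalised reads in Mutant 1 to 4, against 2956, 2867, 2865.5 and 2463 in Control 1 to 4. Its log2 fold change was 0.07 with a 95% interval of -0.11 to 0.25 (adjusted p = 0.653). Irs2 (ENSMUSG00000038894, chromosome 8, 10984681 to 11008458), a second substrate with overlapping functions, was at 3259, 2115, 2666 and 2229.7 in Mutant 1 to 4, against 2061, 2511, 2202 and 2822 in Control 1 to 4. The libraries of Irs2 were more widely spread than those of Irs1, with SDs of 519 in mutants and 339 in controls for Irs2, beside 293 in mutants and 221 in controls for Irs1 (n = 4 each). Its log2 fold change was 0.09 with a 95% interval of -0.25 to 0.42 (adjusted p = 0.781). Whether reads were assigned by strand is not known from the labels. Of the exon bases of Irs1, 30.9% are shared with Gm9747, an annotated gene on the other strand for which no level was available. Of those of Irs2, 2.56% are shared with 9530052E02Rik on the other strand, whose deposited mean was 4.60. How far these overlaps alter the values of Irs1 and Irs2 was not tested.

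Igfbp2, the binding protein with the largest change of the 6, rose 2.13-fold. Its product binds IGF2 in preference to IGF1. The gene (ENSMUSG00000039323, chromosome 1, 72824503 to 72852474) was at 11954, 11657, 9728 and 11535 normalised reads in Mutant 1 to 4, against 4503, 5549, 5661 and 5332 in Control 1 to 4. The lowest mutant library was thus well above the highest control library. The means were 11218 ± 1009 in mutants and 5261 ± 524 in controls (SD, n = 4 each), a log2 fold change of 1.09 (SE 0.09, 95% interval of the fold 1.87 to 2.43, adjusted p = 9.75e-06). The adjusted p did not exceed 5.23e-04 in any of the 19 alternatives tried. The two-sided exact permutation p was 0.0286.

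Igfbp4 fell in mutants. Its product inhibits IGF action until it is cleaved by the protease pappalysin, encoded by Pappa. The gene (ENSMUSG00000017493, chromosome 11, 99041244 to 99054392) was at 14814, 15924, 13333 and 15686 normalised reads in Mutant 1 to 4, against 17239, 18958, 18997.5 and 19919 in Control 1 to 4. Every mutant library lay below every control library. The means were 14939 ± 1172 in mutants and 18778 ± 1118 in controls (SD, n = 4 each), so mutants held 79.6% of the control level (log2 fold change -0.33, SE 0.07, adjusted p = 0.0135, two-sided exact permutation p = 0.0286). This call was lost without Control 4 (adjusted p = 0.0544) and without both Control 2 and Mutant 2 (adjusted p = 0.0528). It held without both Control 3 and Mutant 2 (adjusted p = 0.0477).

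Igfbp5, which had the most reads of the 10 genes, was higher on average in mutants but did not pass the test. Its product binds IGFs and the extracellular matrix. The gene (ENSMUSG00000026185, chromosome 1, 72857932 to 72874884) was at 99099.7, 109585, 94094 and 81897 normalised reads in Mutant 1 to 4, against 69937, 75375, 82825 and 81792 in Control 1 to 4. Mutant 4 lay within the range of the controls and the other 3 mutant libraries above it. The log2 fold change was 0.31 with a 95% interval of 0.11 to 0.51 (adjusted p = 0.065, two-sided exact permutation p = 0.0571). The adjusted p was 0.0324 without Mutant 4, 0.049 with upper-quartile scaling and 0.00857 in the authors' deposited table, and up to 0.287 under the other alternatives.

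Igfbp2 and Igfbp5 are neighbours. They lie tail to tail on chromosome 1, 5.46 kb apart, with no protein-coding gene between them. Their fold changes differed: the log2 ratio of Igfbp2 to Igfbp5 was -3.10 ± 0.20 in mutants and -3.88 ± 0.09 in controls (SD, n = 4 each), a difference of 0.79 (two-sided exact permutation p = 0.0286, the smallest possible, and 0.0286 adjusted over 3 ratios). Igfbp2 alone already separated the groups, so the p-value of this ratio is not independent of that separation. The ratio of Igfbp2 to Igfbp4, genes on different chromosomes, moved further. Per kb of exon it was 1.93, 1.75, 1.74 and 1.76 in Mutant 1 to 4, against 0.625, 0.70, 0.712 and 0.64 in Control 1 to 4. Per kb of exon, Igfbp2 thus lay above Igfbp4 in each mutant library and below it in each control library. In normalised reads, Igfbp4 lay above Igfbp2 in every library of both groups. The reversal therefore rests on the annotated exon lengths used, 1.847 kb for Igfbp2 and 4.416 kb for Igfbp4.

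The 3 remaining binding proteins, Igfbp3, Igfbp6 and Igfbp7, had the fewest reads of the 6 and were not called. Igfbp3 (ENSMUSG00000020427, chromosome 11, 7206086 to 7213923) encodes the main IGF carrier of the circulation. It was at 1227, 837, 1027 and 926 normalised reads in Mutant 1 to 4, against 1332.5, 1292, 799 and 1209 in Control 1 to 4 (log2 fold change -0.19, 95% interval -0.60 to 0.22, adjusted p = 0.579). Igfbp6 (ENSMUSG00000023046, chromosome 15, 102144362 to 102149511), whose product strongly prefers IGF2, was at 229, 132, 191 and 171 in Mutant 1 to 4, against 245, 226, 136 and 195 in Control 1 to 4 (log2 fold change -0.14, 95% interval -0.60 to 0.32, adjusted p = 0.742). Igfbp7 (ENSMUSG00000036256, chromosome 5, 77349240 to 77408041), a related protein with weak affinity for IGFs, was at 1301.5, 399.7, 728 and 682 in Mutant 1 to 4, against 1125, 1188, 408 and 1125 in Control 1 to 4. Its log2 fold change was -0.31 with a 95% interval of -1.41 to 0.79 (adjusted p = 0.753). It was -0.68 without Control 3, -0.60 without Mutant 1 and -0.03 without Mutant 2, and Igfbp3 was at -0.36 without Control 3, none of them called. These intervals are wide, and for Igfbp7 a rise or a fall as large as 1.73-fold or to 0.375 of the control level would lie within it. Counting alone would give an error of about 7.21% for Igfbp6 and 3.37% for Igfbp7, whereas their coefficients of variation were 22.5% and 48.6% in mutants and 23.8% and 38.5% in controls. Of the exon bases of Igfbp7, 7.03% are shared with Polr2b, an expressed gene on the other strand.

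The spread of Igfbp3, Igfbp6 and Igfbp7 followed the libraries. Each of these genes was lowest in Mutant 2 among mutants and in Control 3 among controls, the libraries that were also lowest in the summed markers of 5 lists. For stroma the sums were 47995, 24251, 38065 and 39864 normalised reads in Mutant 1 to 4, against 59439, 40306, 27632 and 34942 in Control 1 to 4. For ureteric bud they were 5435, 2057, 3547 and 3953 in Mutant 1 to 4, against 3879.9, 2927, 1010.1 and 4661 in Control 1 to 4. Endothelium, leukocytes, and early nephron and tubule gave the other lists in which both libraries were lowest. Igf1r and Igfbp5 were instead highest in Mutant 2 and in Control 3. Summed nephron progenitor markers were highest there too, by 0.06 on the log2 scale over the group mean in each. The part of other cell types in the spread of these genes was not tested.

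**Figure D3:**
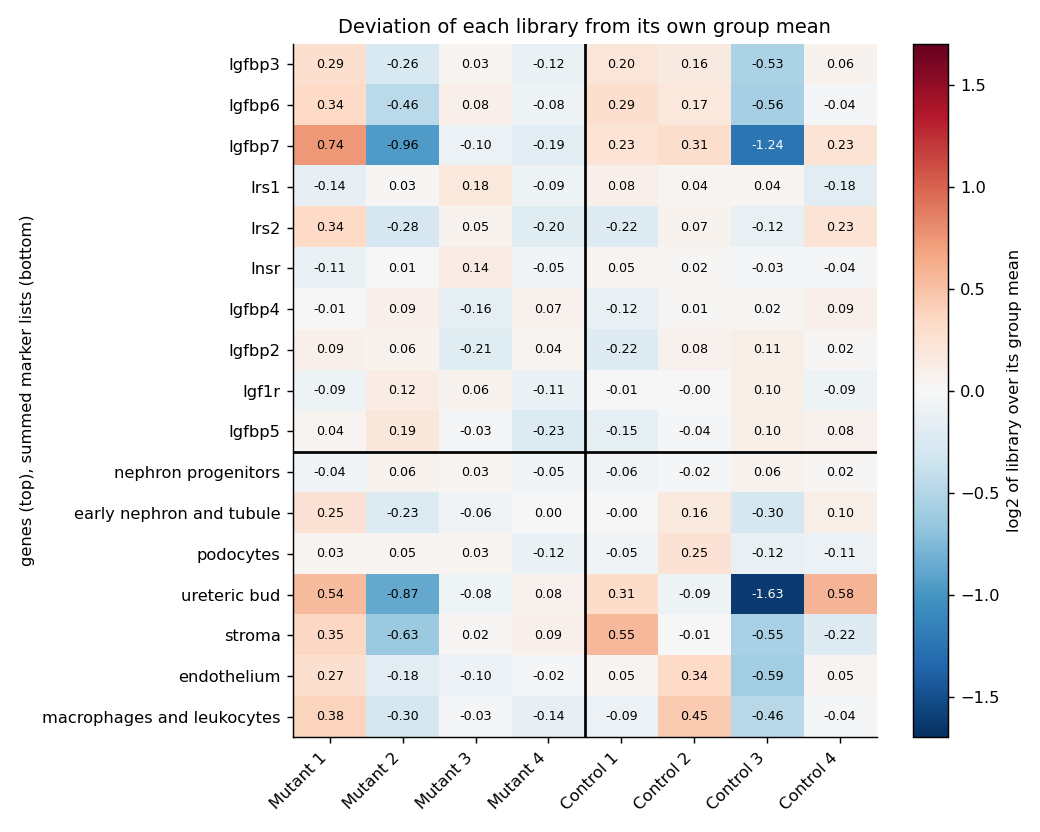
Log2 of each library's value over the mean of its own group, for the 10 genes (upper rows, normalised reads) and for the summed markers of cell types (lower rows), with Mutant libraries left and Control libraries right. Igfbp7 and the ureteric bud sum lie at -0.96 and -0.87 in Mutant 2 and at -1.24 and -1.63 in Control 3.

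Between the groups, the summed podocyte markers (9 of 9 in the table, none at 0) also differed, at 15505 to 17355 normalised reads in mutants and 18422 to 23777 in controls, with 1 of the markers, Plce1, called higher and 1 called lower. Of the 10 progenitor markers, Gdnf was called higher and Meox1, Tmem100 and Osr1 lower. The part of these differences in the changes of Igf1r, Igfbp2 and Igfbp4 was not tested. The sums overlapped between groups for stroma (24251 to 47995 in mutants, 27632 to 59439 in controls), endothelium (2123 to 2898 and 1588 to 3019), ureteric bud, leukocytes, early nephron and tubule, and red blood cells (3 of 5 in the table, 63.1 to 129.8 and 75.6 to 129.4). Of these 6 lists, Plvap of the endothelium was called higher and Cdh6 of the early nephron lower in mutants, and the other members were not called.

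Per length of transcript, the binding proteins spanned a wide range, with Igfbp5 highest and Igfbp6 lowest in both groups. Levels were compared as normalised reads per kb of annotated exon (GENCODE M21). All annotated exons of a gene were merged, so the order of genes depends on these lengths, which may differ from those of the expressed transcripts. Igfbp5 was at 16012 ± 1914 reads per kb in mutants and 12901 ± 1001 in controls (SD, n = 4 each), a range that overlapped that of the ligand gene Igf2 in both groups. Igfbp2 stood at 6074 ± 546 in mutants and 2849 ± 284 in controls, and Igfbp4 at 3383 ± 265 and 4252 ± 253 (SD, n = 4 each). These 3 levels did not overlap with each other within either group. Igf2r, at 1094 ± 35.1 and 1115 ± 43.4, lay between Igfbp4 and Igf1r in mutants, while in controls it lay between Igfbp2 and Igfbp7. Igf1r stood at 654 ± 51.7 in mutants and 489 ± 27.0 in controls, and Igfbp7 at 643 ± 313 and 795 ± 306 (SD, n = 4 each). The mutant libraries of Igfbp7 ran from 331 to 1076, so its place in the order of mutants is not settled. That range overlapped those of Igf2r (1045 to 1129), Igf1r (607 to 713) and Irs2 (335 to 515). Irs2, Igfbp3 and Irs1 followed, between 321 and 406 in mutants and between 305 and 379 in controls, with ranges that overlapped from each to the next. Insr was at 254 ± 19.0 and 251 ± 6.94, and Igfbp6 was the lowest of the 10 at 163 ± 36.6 in mutants and 180.1 ± 42.9 in controls (SD, n = 4 each).

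**Figure D4:**
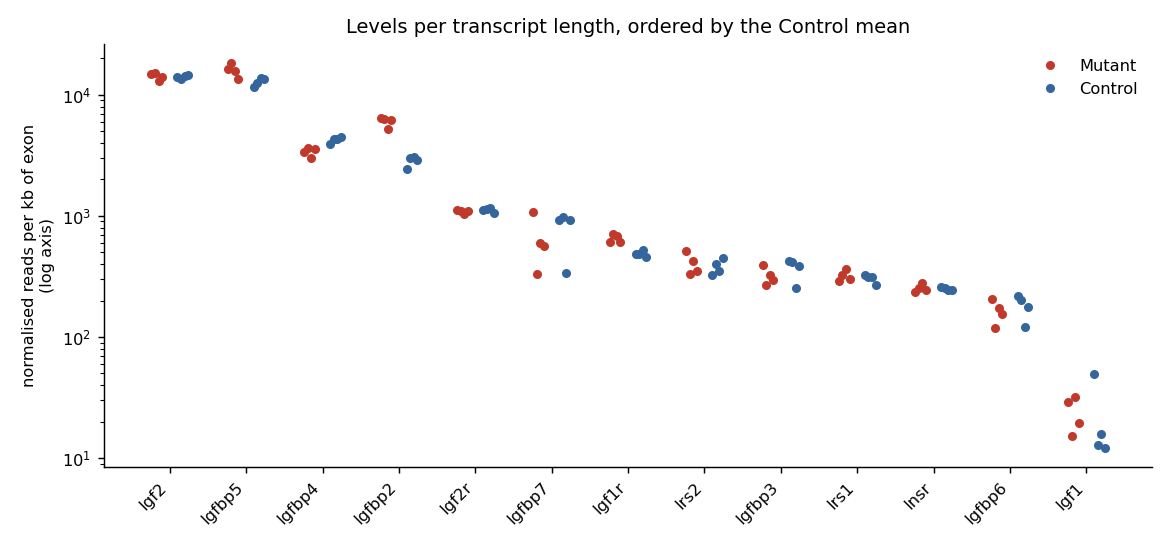
Normalised reads per kb of exon (vertical log axis) of the 10 genes and of Igf1, Igf2 and Igf2r in the 4 Mutant and 4 Control libraries (points), ordered by the Control mean. Igfbp2 lies above Igfbp4 in Mutant libraries and below it in Control libraries.

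The make-up of binding protein transcripts followed from these levels. Summed per kb, the 6 genes reached 26596 ± 2174 in mutants and 21347 ± 1267 in controls (SD, n = 4 each). Igfbp2 made up 23.1%, 21.9%, 21.0% and 25.5% of the sum in Mutant 1 to 4, against 12.5%, 14.01%, 14.01% and 12.8% in Control 1 to 4. Igfbp4 made up 12.8 ± 1.20% in mutants and 19.9 ± 0.17% in controls, while Igfbp5 made up 60.1 ± 3.44% and 60.4 ± 1.94% (SD, n = 4 each). The shares are given as a description, since a rise of 1 gene lowers the shares of the others. They also depend on the annotated exon lengths.

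The ligands and the clearing receptor gave no call. Igf2 was at 85304, 87247, 74918 and 80232 normalised reads in Mutant 1 to 4, against 79663, 76922, 81257 and 82881 in Control 1 to 4 (log2 fold change 0.03, 95% interval -0.11 to 0.17, adjusted p = 0.838). Igf2r, which clears IGF2, averaged 10186 ± 327 in mutants and 10379.8 ± 404 in controls (SD, n = 4 each, adjusted p = 0.81). Both are imprinted genes. Igf1 was at 288, 151, 319 and 191 in Mutant 1 to 4, against 491, 127, 158 and 120.1 in Control 1 to 4 (adjusted p = 0.783), and Control 1 also had the highest stroma sum. Igfbp1, which lies 3.54 kb from Igfbp3, was near the filter at 9.20 ± 6.88 and 20.4 ± 20.5 (SD, n = 4 each, adjusted p = 0.523), with a 95% interval of the log2 fold change of -2.39 to 0.72.

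Of 66 other genes of IGF and insulin signalling, 63 were tested, 4 rose, 2 fell and 57 did not pass the test. The called share of 9.52% lay near the 8.43% of all genes, and the median log2 fold change was -0.01 in both. The rises were led by Stc2 and Stc1, secreted stanniocalcins that in human cells inhibit the pappalysins, the proteases of IGF binding proteins. Stc2 rose to 2403 ± 186 normalised reads in mutants, against 110.3 ± 7.66 in controls (SD, n = 4 each, 21.6-fold, adjusted p = 7.9e-11). Stc1 rose to 3789 ± 210.2 in mutants, against 984 ± 153 in controls (SD, n = 4 each, 3.88-fold, adjusted p = 1.89e-07). The protease genes themselves were not called: Pappa averaged 279 ± 30.9 in mutants and 233 ± 121 in controls, and Pappa2 averaged 395 ± 247 in mutants and 220.4 ± 91.1 in controls (SD, n = 4 each, adjusted p = 0.529 for Pappa and 0.397 for Pappa2).

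Ptpn2, a phosphatase that acts on the insulin receptor, rose 1.29-fold to 2546 ± 159 in mutants, against 1969 ± 111 in controls (SD, n = 4 each, adjusted p = 0.00398). Sh2b3, an adaptor that dampens tyrosine kinase signalling, fell by 0.27 on the log2 scale to 1594 ± 77.1 in mutants, against 1916 ± 50.7 in controls (SD, n = 4 each, adjusted p = 0.0116). Its call was lost in 4 of 19 alternatives, among them the deposited values as they stand (adjusted p = 0.191), the fit without both Control 3 and Mutant 2 (adjusted p = 0.0581) and the fit without both Control 2 and Mutant 2 (adjusted p = 0.119).

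Igf2bp3, an RNA-binding protein that binds Igf2 transcripts, fell by 1.13 on the log2 scale to 853 ± 169 normalised reads in mutants, against 1862 ± 317 in controls (SD, n = 4 each, adjusted p = 0.00385). Its relatives did not pass the test: Igf2bp1 averaged 4424 ± 255 in mutants and 5131 ± 379 in controls, and Igf2bp2 averaged 7280.1 ± 60.2 in mutants and 7676 ± 275 in controls (SD, n = 4 each, adjusted p = 0.0798 for Igf2bp1 and 0.392 for Igf2bp2). The authors' deposited table called Igf2bp1 lower (adjusted p = 0.0257). Downstream of the adaptors, the PI3-kinase subunits Pik3ca, Pik3cb, Pik3r1, Pik3r2 and Pik3r3, the kinases Pdpk1, Akt1 and Akt2 and the transcription factors Foxo1, Foxo3, Foxo4 and Foxo6 gave no call. The largest log2 difference among these 12 genes was that of Foxo3, at 0.17 (95% interval 0.01 to 0.33, adjusted p = 0.193).

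**Figure D5:**
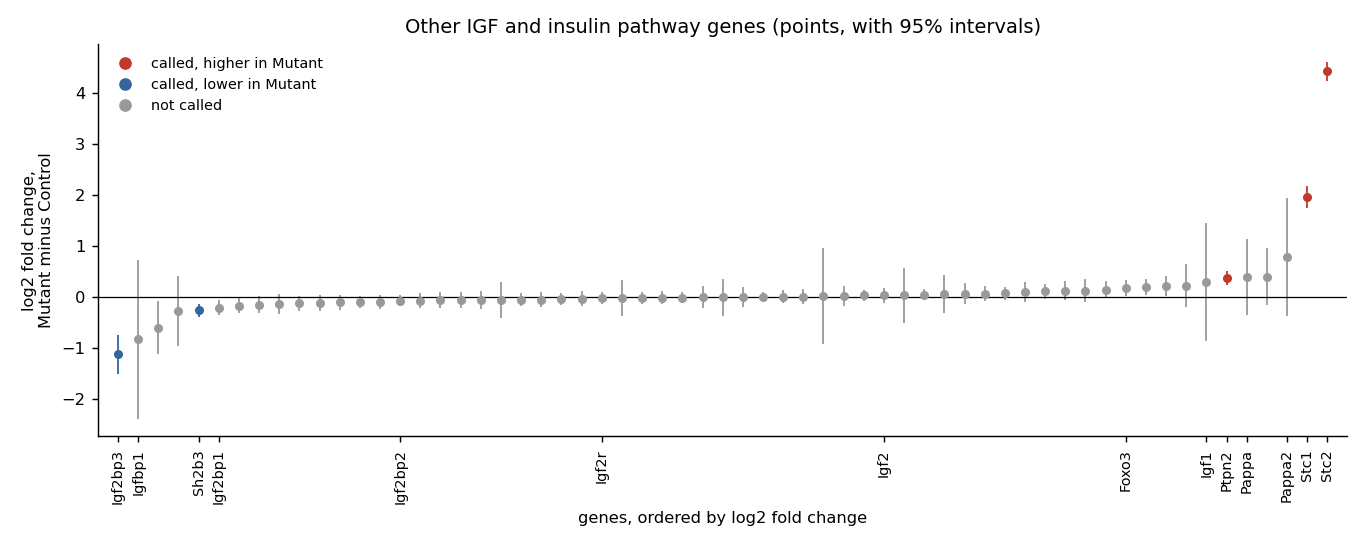
Log2 fold change, Mutant minus Control, of 61 of the 63 tested genes of the wider IGF and insulin pathway (points) with 95% intervals, ordered by size. Labels mark the genes whose values are given in the text. Stc2 and Stc1 lie far above the rest at 4.43 and 1.96, and Igf2bp3 lies lowest at -1.13.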

How the data were processed

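Polyadenylated RNA of 8 libraries was sequenced from stranded libraries, as the labels' protocols state. The submitters' processing notes name STAR 2.5.3a, DESeq2 1.18.1 and mm10. Counter, annotation and strand setting: not given in the sources used here. Each library's deposited signal is reads divided by a size factor and, from the values themselves, divided again by the same factors recycled down the genes. Undoing both divisions gave whole reads that rebuild the deposited gene mean for 20254 of 20254 genes (relative tolerance 1e-09). The authors' deposited log2 fold changes and p-values gave a further alternative. The score column deposited by the authors was left out.

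Reads divided once by the size factors were kept for genes with at least 10 in at least 4 libraries, and log2(value + 1) was fitted over all genes with limma 3.58.1 in R 4.3.3 (mean-variance trend, robust moderation, no covariate). Fold changes are Mutant minus Control on that scale, so those of low genes are understated. Groups were read from the sample titles. The fit was run on simulated counts with the same dispersion for every gene and independent libraries. That run checked the code and does not show how the test behaves on these libraries. The planned count models were not run because the deposited unit is not counts, and limma-voom on recovered reads was added. Alternatives changed the pseudocount, filter, scaling, variance model, block and libraries used. For the 10 genes the counting error was below the coefficient of variation between libraries. Named genes were the 10 genes, Vhl, Igf1, Igf2, Igf2r, Igfbp1 and the called genes of the lists, of which some are not reported here. Pappa, Pappa2, Igf2bp1, Igf2bp2, Xist, Rn45s and the 12 genes downstream of the adaptors were added after their values were seen. The ratios between genes were not among the planned tests. The genes and lists were chosen with earlier results of these data known. Gene positions and exon lengths are from GENCODE M21 (GRCm38, the assembly of mm10).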

Additional observations from a re-analysis of the deposited data

Results flagged for a closer look

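Values of 21 genes were checked in each group of 4 libraries for a library far from the other 3, by Dixon's ratio at its 95% critical value, which chance passes in about 5% of groups. Of 42 groups, 2 passed. Igfbp7 was at 408 normalised reads in Control 3, while the other controls lay between 1125 and 1188. Igf1 was at 491 normalised reads in Control 1, while the other controls lay between 120.1 and 158.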

How the results depend on the processing

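Across 19 alternatives, Igf1r and Igfbp2 kept their direction and call in each. Igfbp4 kept its direction in each and its call in 17, and Igfbp5 gained a call in 3, as given above. The 10 genes gave 2 to 4 calls, and the wider pathway 4 to 8 beside 6. Vhl kept its fall and call in each. The count over all genes was 1297, and it was 697 with the deposited values as they stand, 743 without both Control 3 and Mutant 2, 637 without both Control 2 and Mutant 2, 1888 of 15144 in the authors' deposited table, and 749 to 1572 with each library left out in turn (749 without Mutant 4, 817 without Control 4). Leaving out pairs of libraries and limma-voom were chosen after seeing the data.

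Same-numbered libraries deviated together with correlations of 0.21, -0.14, -0.14 and 0.06 across genes, while Mutant 2 correlated best with Control 3 (0.57), so the numbers were not taken as pairs. With the replicate block, 766 genes and 3 of the 10 genes were called, and 4 genes of the wider pathway, not among them Sh2b3 (adjusted p = 0.0731).

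Genes without a call changed sign in some alternatives, the cause of which was not tested. With each library left out in turn, Insr ranged from -0.0342 (without Mutant 3) to 0.0487, Irs2 from -0.0344 (without Mutant 1) to 0.173, Igfbp6 from -0.316 to 0.00078 (without Mutant 2), and Igfbp7 from -0.683 (without Control 3) to -0.0339 (without Mutant 2). Insr was at -0.00087 without both Control 3 and Mutant 2. Without both Control 2 and Mutant 2, Igfbp6 was at 0.0698 and Igfbp7 at 0.11. The planned edgeR and DESeq2 fits were not run.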
